A study of Mus musculus with 2 samples.

Results

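Of the 1973 microRNA genes counted in whole livers of mouse embryos, 9 microRNAs of the nervous system are described here: Mir137, Mir219a-2, Mir9-3, Mir135b, Mir153, Mir92b, Mir204, Mir7b and Mir138-1. They were chosen by their level, which was over 2-fold higher in the liver of replicate 1 than in that of replicate 2, so the difference that follows is a description of genes picked for it and was not tested. The study holds 1 group of 2 libraries, both from strain B6NCrl at embryonic day 14.5, with no treatment and no altered allele named in the labels. Each sample is labelled as the liver of a single pup, collected on its own day, yet the sex is given as pooled and the donor ID is the same for both, so whether 1 or more animals stand behind a library is unclear, and the spread between the libraries may be technical in part. Libraries of total RNA under 30 nucleotides gave 2353946 and 3132763 reads on the strand of a microRNA gene, in replicates 1 and 2. Levels are counts scaled to 1000000 of those reads (CPM), and 95% exact intervals cover counting error only. A list of hepatocyte microRNAs, led by Mir122, the highest gene in both libraries, held 10.6% and 12.01% of the counts, whereas the 9 genes together held 0.0615% (Clopper-Pearson interval 0.0584 to 0.0648) and 0.00808% (0.00711 to 0.00913).

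A microRNA is a short RNA cut from a hairpin precursor. It is loaded into an Argonaute protein and lowers the output of messenger RNAs that pair with its seed, bases 2 to 8 from its 5′ end. In the nervous system miR-9 and miR-92b are known from neural progenitors, miR-137, miR-138 and miR-153 from neurons and their synapses, miR-219 from maturing oligodendrocytes, miR-7 from neuroendocrine cells of the hypothalamus and the pituitary, and miR-204 from the choroid plexus and the pigment layer of the eye. miR-135b has been studied in the developing midbrain and is also made in several epithelia.

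The 8 main mature products listed by RefSeq (build GRCm38.p6) are printed to show which messages each gene could address, with the seed in capitals.
miR-137-3p: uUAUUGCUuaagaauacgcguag
miR-219a-5p: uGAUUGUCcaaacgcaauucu
miR-9-5p: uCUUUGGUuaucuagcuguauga
miR-153-3p: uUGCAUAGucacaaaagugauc
miR-92b-3p: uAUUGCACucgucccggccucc
miR-204-5p: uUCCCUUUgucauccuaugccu
miR-7b-5p: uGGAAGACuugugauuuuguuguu
miR-138-5p: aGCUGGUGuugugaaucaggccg
The 8 seeds were all distinct. For Mir135b the table gave the 3p arm, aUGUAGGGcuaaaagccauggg, and the hairpin, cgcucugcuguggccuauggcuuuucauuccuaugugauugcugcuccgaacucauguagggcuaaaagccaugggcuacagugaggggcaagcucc.

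Whether a read of these products could be counted depended on how far the hairpin is unlike others, because the tables keep reads with several alignments (34.0% and 33.1% of all reads) in a row of their own, outside the gene counts. The hairpins of 6 of the 9 genes hold no run of 18 bases found in another mouse hairpin. The 3 others are printed with such runs in capitals.
Mir9-3: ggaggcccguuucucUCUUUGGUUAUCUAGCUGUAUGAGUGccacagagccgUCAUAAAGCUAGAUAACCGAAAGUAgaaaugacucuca
Mir219a-2: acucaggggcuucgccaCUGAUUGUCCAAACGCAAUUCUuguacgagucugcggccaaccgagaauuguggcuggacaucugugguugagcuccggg
Mir138-1: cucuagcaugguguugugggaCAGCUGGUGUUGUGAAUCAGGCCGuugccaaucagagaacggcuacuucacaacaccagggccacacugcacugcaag
Mir9-3 shares both of its arms with Mir9-1 and Mir9-2 (longest run 26 bases), Mir219a-2 shares its 5p arm with Mir219a-1 (22 bases), and Mir138-1 shares its 5p arm with Mir138-2 (24 bases). A read lying wholly within the capitals matches more than 1 locus. For these 3 genes that includes the whole 5p product, so their counts may hold only a part of their reads. For Mir9-3 it includes the whole 3p product too. Reads of either exact mature product therefore match other loci, and the Mir9-3 count does not measure mature miR-9. The tables give 1 count for each gene, so which arm the reads came from was not analysed here.

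The genes lie apart from each other and from other microRNAs with counts. Positions and overlapping genes are those of GENCODE M21 on GRCm38. Mir137 (chr3:118433857-118433929, plus strand) lies in an exon of the noncoding transcript Gm26871. Mir9-3 (chr7:79505264-79505353, plus) lies in an intron of its long noncoding host Mir9-3hg. Introns of protein-coding genes on the same strand hold Mir153 (chr12:117250817-117250885, plus), within the secretory granule protein gene Ptprn2, Mir204 (chr19:22750605-22750672, plus), within the cation channel gene Trpm3, and Mir135b (chr1:132198088-132198184, plus), within Lemd1 and the overlapping model AC124108.1. Mir138-1 (chr9:122682876-122682974, plus) lies in an exon of the pseudogene model Gm47135. Mir219a-2 (chr2:29845631-29845727, minus) overlaps only Mir219b, on the other strand, while Mir92b (chr3:89227116-89227198, minus) and Mir7b (chr17:56242988-56243098, plus) overlap no other annotated gene. The libraries do not measure the RNA of these host genes. The nearest other microRNA gene that reached 10 counts in both livers was 617 kb away for Mir9-3 (Mir7-2) and farther for the rest. That neighbour had a ratio of replicate 1 to replicate 2 between 0.844 (Mir199b, 2473 kb from Mir219a-2) and 1.49 (Mir7-2), so none of the nearest neighbours was over 2-fold higher in replicate 1.

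Mir137 was the most abundant of the 9 in both livers. It had 570 reads in replicate 1, or 242.1 CPM, and 70 reads in replicate 2, or 22.3 CPM, a ratio of 10.8 (95% exact interval 8.44 to 14.1). In replicate 1 Mir135b followed, with 297 and 39 reads in replicates 1 and 2 (126.2 and 12.4 CPM) and a ratio of 10.1 (7.24 to 14.5). In replicate 2 Mir138-1 came next, with 42 reads. Of the 1973 genes ranked, 1273 had no count in either library. Mir137 and Mir135b stood at ranks 150 and 184 in replicate 1 and at ranks 244 and 273 in replicate 2. Together they made up 41.1% and 21.3% of the summed CPM difference of the 9 genes.

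The oligodendrocyte microRNA gene Mir219a-2 had 127 and 11 reads (53.95 and 3.51 CPM), a ratio of 15.4 (8.30 to 31.6). Mir92b had 178 and 34 reads (75.6 and 10.9 CPM), a ratio of 6.97 (4.81 to 10.4). Mir153 had 68 and 12 reads (28.9 and 3.83 CPM), a ratio of 7.54 (4.05 to 15.3). The intervals of these 3 ratios overlap each other and those of Mir137 and Mir135b, and their order by ratio was not tested. Mir9-3 had 38 reads in replicate 1 (16.1 CPM) and 2 in replicate 2 (0.638 CPM), below the 3 counts, or 0.958 CPM, that a count of 0 allows there. Its ratio of 25.3 has an interval from 6.53 to 216 and is too wide to rank.

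The other 3 genes differed less. Mir138-1 had 87 and 42 reads (36.96 and 13.4 CPM), a ratio of 2.76 (1.89 to 4.08). Mir204 had 33 and 16 reads (14.0 and 5.11 CPM), a ratio of 2.74 (1.47 to 5.34). Mir7b had 50 and 27 reads (21.2 and 8.62 CPM), a ratio of 2.46 (1.51 to 4.09). The lower bounds of all 3 lie under 2, so within counting error their ratios could lie below the fold that chose them. The lower bounds of the 6 others lie above it. The interval of Mir138-1 also ends below the start of that of Mir92b.

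Because of this unequal shift, the make-up of the set differed between the livers. Mir137 held 39.4% of the set's reads in replicate 1 and 27.7% in replicate 2, and Mir135b 20.5% and 15.4%. Mir138-1 went the other way with 6.01% and 16.6%, as did Mir7b with 3.45% and 10.7%. The summed level was 615 CPM in replicate 1 and 80.8 CPM in replicate 2 (mean 348 ± 378, SD, n = 2), a ratio of 7.62 (6.66 to 8.74). Without Mir137 that ratio was 6.39 (5.44 to 7.53). On the opposite strand, which the choice of genes did not use, 8 of the 9 had no read in either library, and Mir219a-2 had 0 and 1.

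**Figure D1:**
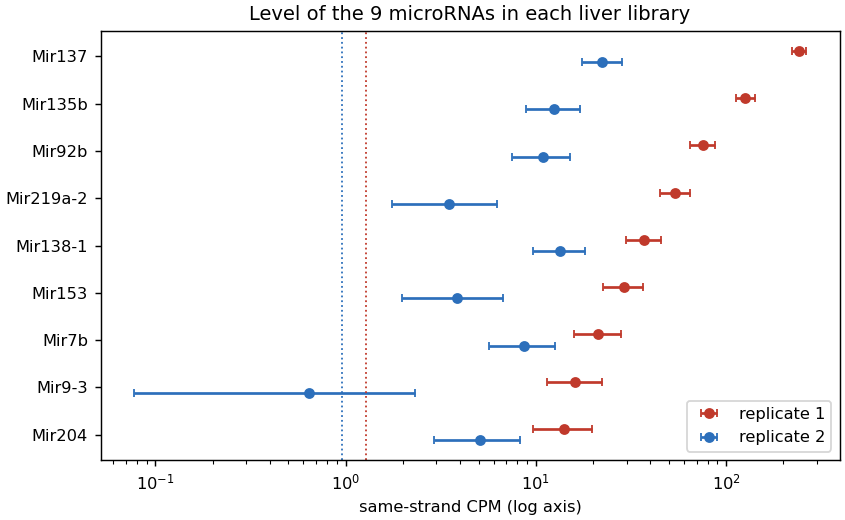
Same-strand CPM (log axis) of each gene in replicate 1 (red) and replicate 2 (blue), with 95% Clopper-Pearson intervals of counting error, and dotted lines at the CPM of 3 counts in each library (1.27 and 0.958). For each of the 9 genes the red interval lies to the right of the blue one, with Mir137 highest and Mir9-3 below the line in replicate 2.

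Read against all microRNAs, a difference as large as this was uncommon between these libraries. Requiring 10 or more counts in both libraries left 332 genes, of which 17 (5.12%) were over 2-fold higher in replicate 1, and 8 of the 17 were among the 9, which the choice fixed. Mir9-3 did not reach 10 counts in replicate 2. With a minimum of 20 counts over both libraries together, set after the data were seen, all 9 genes entered, and 24 of 355 genes (6.76%) were over 2-fold higher in replicate 1. The median ratio over the 332 genes was 0.977. Just inside the threshold lay Mir7b, Mir204 and Mir138-1. Just outside the set lay Mir212 (34 and 21 reads, 14.4 and 6.70 CPM, ratio 2.15) and Mir346 (29 and 19 reads, 12.3 and 6.06 CPM, ratio 2.03), which are neural and also over 2-fold but are not among the 9, and Mir598 (165.3 and 84.6 CPM, ratio 1.95).

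**Figure D2:**
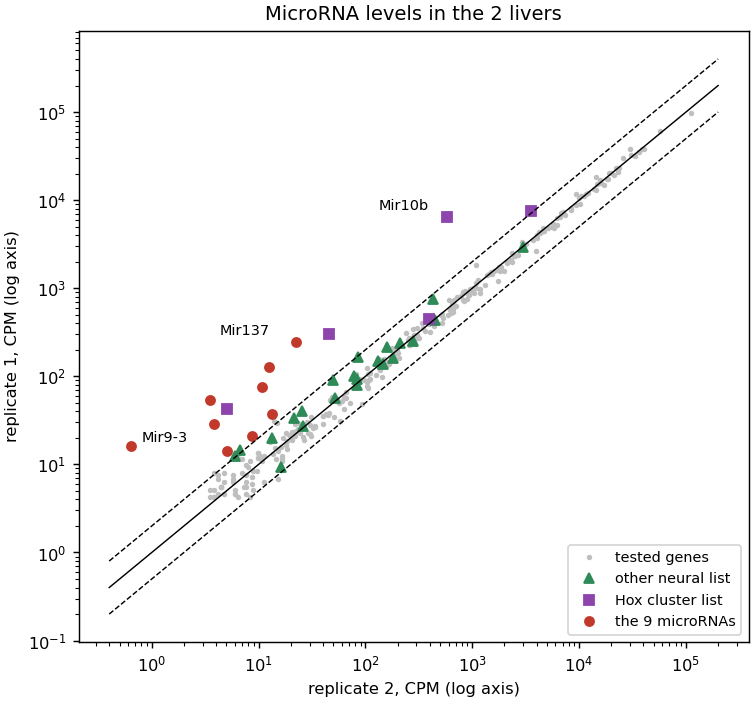
Each point is a microRNA gene that reached 10 counts in both libraries, or one of the 9, by its CPM in replicate 2 (horizontal, log axis) and replicate 1 (vertical, log axis), with the line of equality and dashed lines at 2-fold. The 9 genes (red circles) and 4 Hox cluster genes (purple squares) lie above the upper dashed line, with Mir7b, Mir204, Mir138-1 and Mir10a close to it, while the other neural genes (green triangles) lie near the line of equality or between the lines, apart from Mir212 and Mir346 just above.

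Several of these microRNAs have relatives with the same seed, looked up for the 8 genes with a listed main product and so not for Mir135b. Every relative found that reached 10 counts in both libraries had a ratio between 0.768 (Mir92-2) and 1.58 (Mir138-2). Mir92b shares its seed with 6 measured genes, among them the growth-associated Mir92-1, Mir92-2, Mir25 and Mir363 of the miR-17-92, miR-106b-25 and miR-106a-363 clusters. Their mature products are printed to show the shared capitals, beside those of the miR-7 and miR-204 relatives.
miR-92a-3p: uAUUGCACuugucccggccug
miR-25-3p: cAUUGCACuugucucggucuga
miR-32-5p: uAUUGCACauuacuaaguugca
miR-363-3p: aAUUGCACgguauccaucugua
miR-7a-5p: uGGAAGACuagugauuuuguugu
miR-211-5p: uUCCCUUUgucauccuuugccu
All genes with the miR-92b seed summed to 7801 CPM in replicate 1 and 8684 CPM in replicate 2, a ratio of 0.898 (0.882 to 0.915), and Mir92b was 0.969% and 0.125% of that sum. The most abundant relative, Mir92-1, had 5264 and 6184 CPM and was higher in replicate 2 (ratio 0.851, interval 0.832 to 0.871). The counted reads of genes with this seed were thus slightly more frequent in the liver where Mir92b itself was lower. Mir92-1 and Mir92-2 make the same mature miR-92a-3p, so reads of it that match both loci are not in this sum.

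Mir7b shares its seed with Mir7-1 (238.7 and 209.4 CPM, ratio 1.14) and Mir7-2 (19.97 and 13.4 CPM, ratio 1.49), and with them summed to 280 and 231.4 CPM, a ratio of 1.21 (1.09 to 1.35). Mir7-1 and Mir7-2 likewise share miR-7a-5p, and reads that match both are not counted. By the exact binomial test neither Mir7-1 nor Mir7-2 passed (adjusted p = 0.0568 and 0.152). Mir219a-1, the second locus of miR-219a, had 65 and 81 reads (27.6 and 25.9 CPM), a ratio of 1.07 (0.758 to 1.499), so that in replicate 2 it held most of the reads assigned to the pair, of which Mir219a-2 had 11.96%. In replicate 1 Mir219a-2 had 66.1% of them. Mir138-2 had 95 and 80 reads (40.4 and 25.5 CPM) and was 1.58-fold higher in replicate 1 (1.16 to 2.16, adjusted p = 0.00936 by the exact binomial test). Reads lying wholly within the 5p runs that these pairs share match both loci.

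For Mir204 the relatives were Mir211, with 2 and 0 reads, and Mir7670, with 7 and 23 reads, and the 3 genes summed to 17.8 and 12.4 CPM (ratio 1.43, interval 0.905 to 2.28). No measured gene shares the seed of miR-137 or miR-153. Mir9-2 had no read in either library, though most of its hairpin is shared with other loci, and Mir9-1 was not analysed here. Hairpins of the miR-135a pair, which have a longest run of 14 bases in common with Mir135b, had 19 and 6 reads at Mir135a-1 (8.07 and 1.92 CPM, ratio 4.21, interval 1.62 to 12.9) and 6 and 1 at Mir135a-2. The reads assigned to the Mir219a loci summed to a ratio of 2.78 (2.16 to 3.60) and those assigned to the Mir138 loci to one of 1.99 (1.57 to 2.52). These sums leave out reads that match both loci of a pair, so they are not ratios of the mature microRNAs.

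**Figure D3:**
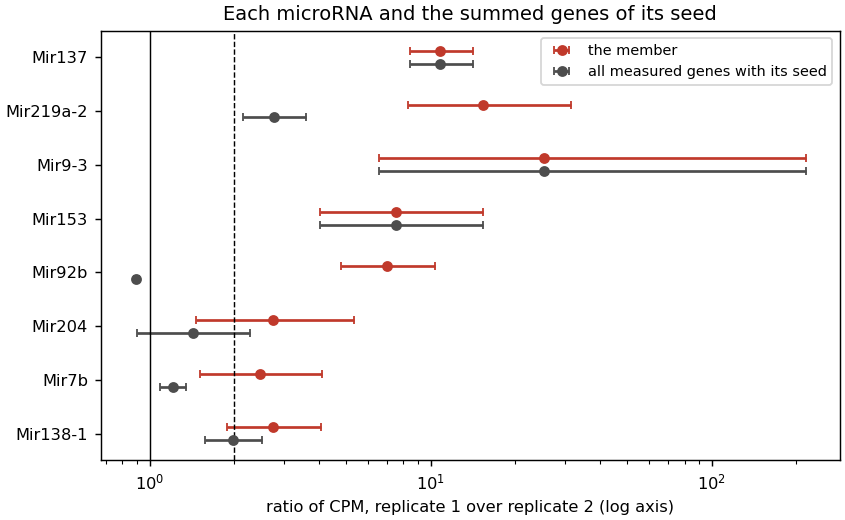
Ratio of CPM in replicate 1 to that in replicate 2 (log axis, 95% exact intervals of counting error) for 8 of the genes (red) and for all measured genes whose mature product has the same seed (grey), with lines at 1 and 2. The grey point drops to 0.898 for Mir92b and to 1.21 (1.09 to 1.35) for Mir7b, and equals the red point where no relative had reads.

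Other microRNAs of the nervous system came from a list of 53, of which 50 had a row. The 9 genes had been taken out of it for being over 2-fold higher in replicate 1, so its counts are a description of what was left. Of the 22 on it that reached 10 counts in both libraries, 8 (36.4%) were higher in replicate 1 by the exact binomial test and none in replicate 2, against 59 of all 332 genes (17.8%) higher in replicate 1 and 136 (41.0%) in either direction. At an unadjusted threshold, 3 of the 22, Mir184, Mir328 and Mir139, were lower in replicate 1 (exact p = 0.0345, 0.0280 and 0.0390). The test compares these libraries only. The 8 were Mir149, Mir598, Mir708, Mir125b-2, Mir138-2, Mir128-2, Mir212 and Mir132. Mir149 had 752.8 and 429.7 CPM (ratio 1.75, interval 1.63 to 1.88, adjusted p = 1.65e-53), Mir708, in an intron of the teneurin gene Tenm4, had 90.5 and 50.1 CPM (ratio 1.81), and Mir132, which neuronal activity induces, had 100.3 and 78.5 CPM (ratio 1.28, adjusted p = 0.0224). The list's median ratio was 1.14, against 0.977 over all 332 genes, and its sum was 6060 and 5548 CPM. Its most abundant member, Mir139, which many tissues make, had 2902 and 2999 CPM and did not pass (ratio 0.968, adjusted p = 0.0836), and neither did Mir187, Mir330, Mir326, Mir874 or Mir328. Mir346, past 2-fold, did not pass either (adjusted p = 0.0521, exact binomial test).

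Another 8 genes of the list had at least 10 counts over both libraries but under 10 in at least 1 of them. Mir129-1, Mir129-2 and Mir218-1 were under 10 in both. Entry to this group leans on the library where a gene is higher, so the ratios are given as values only. Mir383 had 30 and 6 reads (12.7 and 1.92 CPM), a ratio of 6.65 (2.73 to 19.6). Mir384 had 18 and 3 reads (ratio 7.99, 2.33 to 42.3), and Mir1298 had 15 and 4 (ratio 4.99, 1.59 to 20.7). Mir218-2 had 24 and 7 reads (ratio 4.56, 1.91 to 12.5), and Mir135a-1 is given above. miR-218 marks motor neurons, and its other locus, Mir218-1, had 9 and 4 reads. The neuron-defining Mir124a loci had 0 and 1 reads at Mir124a-1 and none at Mir124a-2 and Mir124a-3, but these loci are known to make the same mature product, whose reads would align to each of them. Mir129-1 and Mir129-2 had 6 and 4, and 8 and 5 reads.

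**Figure D4:**
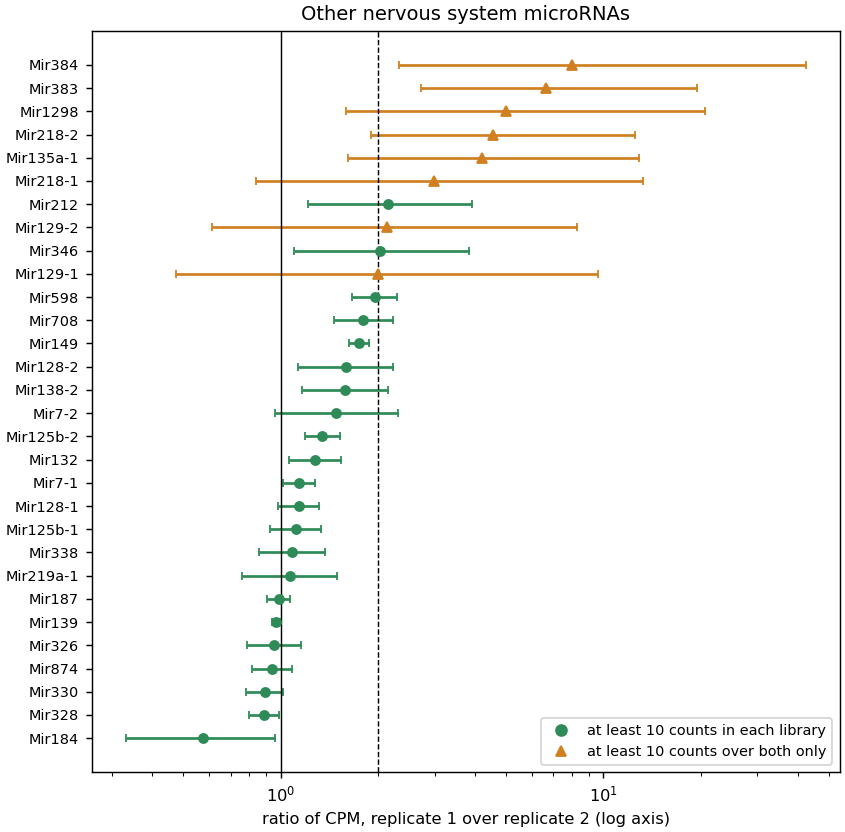
Ratio of CPM in replicate 1 to that in replicate 2 (log axis, 95% exact intervals) for the 30 genes of the other neural list with at least 10 counts over both libraries, as green circles where each library had 10 or more and orange triangles otherwise. The 8 triangles, which reached the minimum only over both libraries, lie between 2.00 and 7.99, and Mir184 (0.574) is lowest.

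Among genes other than the 9, the 4 most like them by a rule stricter than the one that chose them lay in the Hox clusters. By a rule asking for 10 counts in both libraries and a ratio whose whole interval lies above 2, 4 other genes qualified, all of them in or beside Hox genes: Mir10b (6365 and 582.9 CPM, ratio 10.9), Mir196a-2 (42.9 and 5.11 CPM, ratio 8.40), Mir615 (302.9 and 45.3 CPM, ratio 6.68) and Mir10a (7584 and 3549 CPM, ratio 2.14). Of the 9 genes, 5 met this rule. An interval narrows as counts rise, so the rule favours abundant genes. Mir383 and Mir384 of the other neural list, and Mir9-3, had intervals wholly above 2 but under 10 counts in replicate 2. Mir206 (ratio 2.21), Mir6944 (2.11) and Mir3099 (2.06) had 10 counts in both libraries and were also over 2-fold. They are on neither the neural nor the Hox list, and their intervals start below 2. Likeness here rests on 2 libraries. Mir196b, also in a Hox cluster, was more abundant than Mir615 and Mir196a-2 but close to level (450.3 and 395.2 CPM, ratio 1.14, interval 1.05 to 1.24). Hox genes give position along the body axis in many trunk tissues, including the spinal cord. The Hox list as a whole, with 6 of 6 genes measured and Mir196a-1 at 0 and 1 reads, held 14745.5 and 4577 CPM, a ratio of 3.22 (3.16 to 3.28).

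Marker lists of other tissues had summed ratios nearer to 1, though a sum is led by its most abundant genes. The muscle list had 312 and 278 CPM, a ratio of 1.12 (1.02 to 1.24), most of it from Mir499 (272.7 and 258.2 CPM, ratio 1.06). The median ratio of its 3 tested genes was 1.64, with Mir206 of skeletal muscle (31.0 and 14.0 CPM, ratio 2.21) higher in replicate 1 by the exact binomial test and Mir208b (6.80 and 4.15 CPM, ratio 1.64) not passing. Mir1a-1, Mir133a-1 and Mir133a-2 were at 0. Reads with several alignments are outside the gene counts, so a count of 0 need not mean that the mature product is absent. The sensory cluster Mir183, Mir96 and Mir182 had 556 and 479.4 CPM (ratio 1.16, 1.08 to 1.25). The pancreas and gut list had 960.5 and 1012 CPM (0.9495, 0.899 to 1.00), the skin and other epithelium list 3094 and 3296 CPM (0.939, 0.911 to 0.967), and the mesenchymal list 22825 and 21771 CPM (1.05, 1.04 to 1.06). The hepatocyte list was lower in replicate 1 (ratio 0.887, 0.883 to 0.891) and the erythroid list higher (1.25, 1.24 to 1.26). The part of any other tissue in the difference of the 9 genes was not tested, and in whole tissue a different number of cells and a different amount of RNA per cell cannot be told apart.

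**Figure D5:**
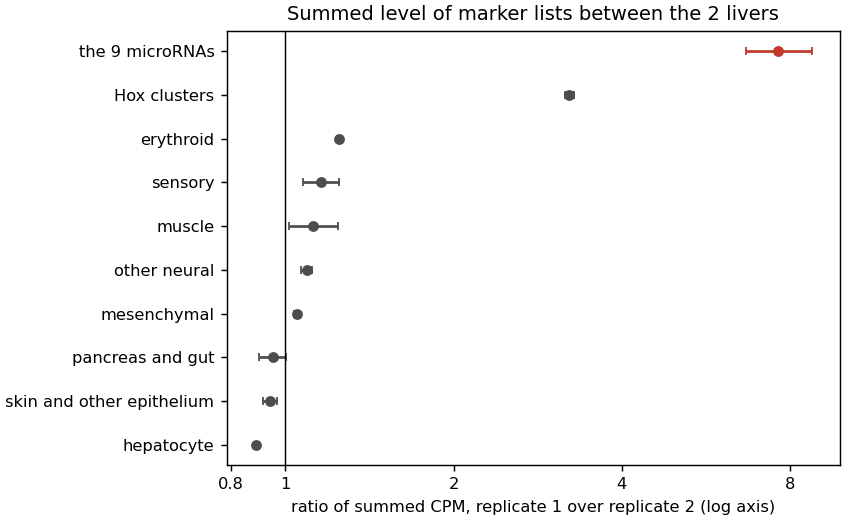
Ratio of the summed CPM in replicate 1 to that in replicate 2 (log axis, 95% exact intervals of counting error) for the 9 genes (red) and for 9 marker lists (grey). The 9 genes, picked for their ratio, stand at 7.62 and the Hox list at 3.22, while the other lists lie between 0.887 and 1.25.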

How the data were processed

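Small RNA was sequenced from 2 embryonic livers of 1 group. The deposited tables hold raw read counts per microRNA gene (regardless of strand, on the gene's strand and on the opposite strand), made by the authors from each sample's own alignment to mm10 with annotation M4, per the notes deposited with them. No source used here names the aligner, the counter or a trimming step. Totals exclude the rows for unmapped reads (18.6% and 17.7%), multiply aligned reads (34.0% and 33.1%) and reads in no gene (6.66% and 5.93% regardless of strand).

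Symbols and positions came from GENCODE M21 (1894 of 1973 IDs matched) and sequences from RefSeq (9 of the 9 genes). CPM is the same-strand count divided by its total, times 1000000. Ratios have exact conditional binomial intervals (SciPy 1.17.1). The 332 genes that reached 10 counts in both libraries were compared by a two-sided exact binomial test (the smaller tail times 2, Benjamini-Hochberg over all of them, threshold 0.05), which compares 2 libraries, not conditions. Named were the 9 genes, their seed relatives, other neural genes and non-members among the 332 with an interval wholly above 2; other genes were named after their values were seen. The 9 genes and the lists were chosen with earlier results of these data known. Alternatives covered strand, TMM (edgeR 4.0.16), DESeq2 1.42.0 size factors, the highest gene, the count minimum and each replicate. The steps were tested on simulated data.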

Additional observations from a re-analysis of the deposited data

Results flagged for a closer look

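Reads on the strand opposite to the gene were not part of the comparisons, and 2 genes of the other neural list had more of them than the 3 counts that a count of 0 allows. Mir129-2 had 14 in replicate 1 and 21 in replicate 2, against 8 and 5 on its own strand, and Mir129b is annotated on the opposite strand at that place. Mir708 had 7 in replicate 1 and 3 in replicate 2, against 213 and 157 on its own strand.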

How the results depend on the processing

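Counts regardless of strand, TMM, DESeq2 size factors and totals without the highest gene gave ratios of the 9 genes from 2.43 to 25.7. These settings rescale all genes nearly alike, and the genes were chosen by the ratio, so this range says nothing about its stability. The summed ratio of 7.62 lay between 7.51 and 7.75 under these, was 6.39 without Mir137, and was 8.04 without Mir9-3, Mir219a-2 and Mir138-1, a choice made after the data were seen. Leaving out a replicate gave a summed level of 80.8 or 615 CPM. The number of genes over 2-fold higher in replicate 1 was 17 of 332. It moved to 57 of 542 with at least 1 count in each library, where many more scarce genes enter. With at least 100 counts it was 3 of 215, and none of the 9 genes enters there, as the most abundant, Mir137, had 70 reads in replicate 2. The number of other neural genes higher in replicate 1 was 8 of 22, against 59 of 332 over all genes. With at least 1 count it moved to 13 of 36, against 65 of 542. By TMM or DESeq2 scaling it was 10 of 22, against 66 of 332. Higher in replicate 2 were 2 of 22 with totals without the highest gene, against 92 of 332 over all genes. With at least 100 counts, 1 of 15 was higher there, against 80 of 215. Genes differing between the libraries numbered from 129 to 147. No paired analysis was possible because there is only 1 group. Scarce genes limit precision: 11 reads of Mir219a-2 and 2 of Mir9-3 in replicate 2 set the width of their intervals.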

Other observations

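The listed symbol Mir873 had no row. Under the symbol Mir873a, chosen after its values were seen, 9 reads were counted in replicate 1 and 0 in replicate 2. The hairpins of the 9 genes had a median GC content of 48.5%, against a median of 50.0% over the 288 of the 332 tested genes that matched a RefSeq hairpin (middle range 43.6% to 56.1%). Mir92b, with 67.5%, was the only one of the 9 above that range, and Mir153, with 42.0%, the only one below it.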
